A study of Saccharomyces cerevisiae with 2 samples.

Results

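The DNA described here is the outermost 20 kb of yeast chromosomes, the subtelomeres. A probe was counted as subtelomeric when its start lay within 20 kb of the lowest or highest probe start of its chromosome, and chromosome 3 was left out. The rule took 1665 of 41282 nuclear probes (4.03%), at 30 ends, with 15 to 82 probes per end (median 60.5). The rule used position alone and no measured value. The cells were Saccharomyces cerevisiae of strain MDY513, which carries a deletion of HTZ1, the gene of the histone variant H2A.Z. All samples share that deletion, so no wild-type value stands beside these. The strain carries histone H3 in a constitutively made Myc-tagged form and in a galactose-induced Flag-tagged form. Alpha factor, the mating pheromone that stops cells in G1, was added at 4 µg/mL for 4 h, and the cells then spent 180 min in 2% galactose. Chromatin precipitated with anti-Flag (Cy3) and with anti-Myc (Cy5) was hybridised together on each of 2 tiling arrays, named replicates 1 and 2. Nothing in the labels ties the replicates to separate cultures. The p-values below reflect differences between 2 arrays, and that spread may be technical only.

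In budding yeast a telomere is followed by Y′ elements at some ends, and then by an X element. Farther in lies a stretch with few essential genes and many gene families. The Sir proteins bind near telomeres and keep genes there silent. In wild-type cells H2A.Z is known for holding silent chromatin back from the neighbouring genes. Histone H3 is exchanged outside S phase mostly at promoters and at highly transcribed genes, and Flag over Myc reads how much of the H3 at a site was made after induction.

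Values are log2 Flag over Myc minus the median of the used probes of the array. At 0 a probe equals its array's median, and a positive value is a larger share of new H3 than that. Neither is an absolute amount. Means are given ± SD of the 2 arrays. A probe was used when it was well above background in both channels of both arrays and carried no outlier flag. That kept 1430 of the 1665 subtelomeric probes. Of the others, 144 were not well above background and 91 had an outlier flag only. The rest of the genome, chromosome 3 again aside, kept 32568 of 38551 probes. The deleted gene was checked by its only probe (chromosome 15, 303821 to 303880), which no channel of either array read well above background. The outermost probe is not the telomere: on left arms its start lay between 41 (chromosome 7) and 12079 (chromosome 14) in the coordinates of the files, so the same distance means a different distance from the telomere at each end. The number of arrays limits the precision of every value below.

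As a whole, subtelomeric DNA lay close to the rest of the genome. Its probes averaged 0.26 and 0.22 on replicates 1 and 2, against 0.18 and 0.18 in the rest. The difference was 0.06 ± 0.03 (exact two-sided sign-flip permutation p = 0.5, the smallest that 2 arrays allow). By limma with Benjamini-Hochberg adjustment at 0.05, 640 of the 1430 probes were above the array median (44.8%) and 556 below it (38.9%). Over all nuclear probes these shares were 40.5% and 40.1%. Relative to the median of reading-frame probes outside the ends, 747 were above and 414 below, so that 64.3% of the called probes were higher, against 53.5% relative to the array median. That centring raises every probe of the genome alike. The share over all nuclear probes under it is not given here, so the rise is not particular to the ends.

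The make-up of the probes differed. Reading frames held 47.1% of the used subtelomeric probes, against 75.6% in the rest. DNA that was in no frame of known length, in no promoter and not between convergent genes held 26.9%, against 4.81%. Probes in frames of unknown length count as outside frames, and only 271 of 321 listed frames in the ends had a known length. In 3 of the 4 kinds of DNA the ends were lower than the rest. Promoter probes, which lie up to 500 bp before a start codon and in no frame, averaged 0.88 ± 0.03 in the ends and 1.17 ± 0.07 in the rest. The promoter difference was -0.28 ± 0.03, and -0.14 when dim probes were kept. Reading-frame probes averaged -0.22 ± 0.01 in the ends and -0.12 ± 0.03 in the rest. That difference was -0.10 ± 0.04 and -0.05 without probes that list multi-copy families. The remaining DNA outside frames showed the widest gap, with 0.57 and 0.52 in the ends and 1.44 and 1.37 in the rest, a difference of -0.87 ± 0.02. How much of that gap comes from frames of unknown length was not tested for the whole 20 kb. DNA between convergent genes was slightly higher in the ends, at 0.51 ± 0.10, against 0.48 ± 0.11 in the rest, a difference of 0.03 on replicate 1 and 0.05 on replicate 2. With the rest weighted to the same make-up, a comparison chosen after the data were seen, the difference between subtelomeric DNA and the rest was -0.32 ± 0.01. None of these differences can pass an exact test with 2 arrays.

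**Figure D1:**
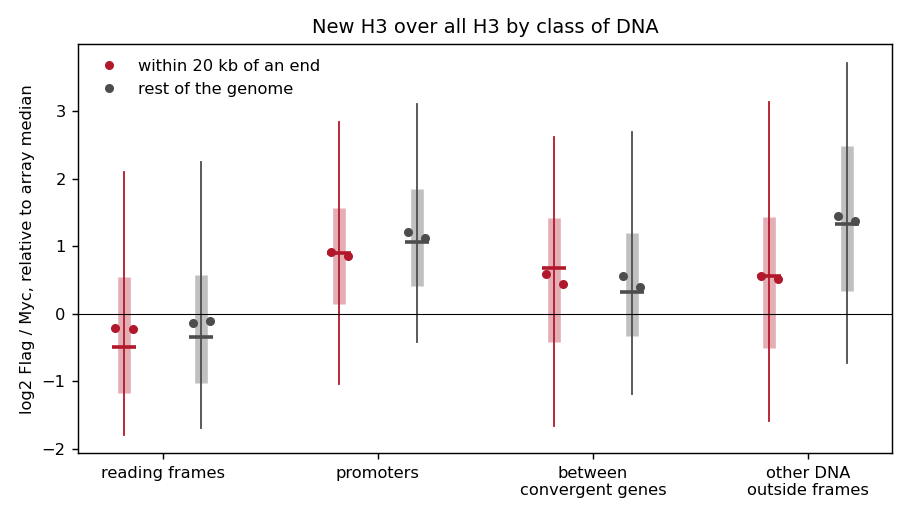
Log2 Flag over Myc, with the array median at 0 (vertical axis), for used probes of 4 kinds of DNA (horizontal axis), within 20 kb of an end (red, left) and in the rest of the genome (grey, right). Points are the means of replicates 1 and 2, dashes the medians over probes, thick bars the middle 50% and thin lines the 5th to 95th percentile of probes. Promoters sit at 0.88 in the ends and 1.17 in the rest, and the other DNA outside frames at 0.54 and 1.41.

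The promoter calls followed the probe means. Of 157 measured subtelomeric promoters, 107 were above the array median (68.2%) and 25 below it (15.9%). Over all promoters 75.9% were above and 6.98% below. Both count each gene, also where genes share promoter probes. The median subtelomeric promoter stood at 0.95, against 0.999 in the rest. Reading frames were more sparsely measured near the ends. The files list 321 frames in the ends, 271 had a known length, and 182 of those had a used probe (67.2%), against 95.9% in the rest. Of the 89 without one, 84 have no probe on the array. Of the 182 frames, 66 were above the array median (36.3%) and 91 below it (50%). Over all frames 39.1% were above and 42.9% below. Relative to frame probes outside the ends the split was 87 above and 68 below, or 56.1% of the called frames higher, against 42.0% relative to the array median. That centring raises all frames of the genome too, and their shares under it are not given here. The step between promoter and frame of the same gene was 0.88 ± 0.05 over 137 subtelomeric genes, against 0.90 ± 0.10 over 4156 genes of the rest. The difference of the steps was -0.06 on replicate 1 and 0.01 on replicate 2, so the arrays did not share a sign. The promoter was above its frame on both arrays in 76.6% of these subtelomeric genes and in 77.5% of the others.

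Distance from the end separated the subtelomeric probes more than their membership did. DNA outside frames averaged -0.03 ± 0.01 in the first kb (39 probes), 0.39 ± 0.02 from 1 to 2 kb (23), -0.03 ± 0.00 from 2 to 5 kb (101) and 0.51 ± 0.05 from 5 to 10 kb (189). From 10 to 15 kb it was 0.82 ± 0.05 (192), and from 15 to 20 kb it was 1.14 on replicate 1 and 1.05 on replicate 2 (212). Beyond the limit it stood at 1.11 ± 0.10 from 20 to 30 kb, 0.94 ± 0.03 from 30 to 50 kb and 1.12 ± 0.07 farther in. Each of the 3 bins in the outer 5 kb was thus below every bin farther in, on both arrays, and the mean from 15 to 20 kb differed from that beyond 50 kb by -0.03 on replicate 1 and -0.02 on replicate 2. Frame probes showed no such order. They averaged -0.30 ± 0.06, 0.11 ± 0.04, -0.27 ± 0.05, -0.49 ± 0.01, -0.32 ± 0.01 and 0.06 ± 0.01 in the 6 bins out to 20 kb, and -0.11 ± 0.03 beyond 50 kb.

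Over the outer 10 kb, DNA outside frames gave 0.29 ± 0.03 (352 probes), against 1.11 in the rest of the genome (7959 probes). The difference was -0.85 on replicate 1 and -0.79 on replicate 2 (exact sign-flip permutation p = 0.5). It lay between -0.88 and -0.71 when any single end was left out, and end 5L moved it most. It was -0.76 without probes that list multi-copy families, X or Y′ elements, and -0.79 without probes that list a frame of unknown length. From 10 to 20 kb the difference from the rest was -0.15 ± 0.01. Frame probes differed from the rest by -0.25 ± 0.05 in the outer 10 kb and by 0.00 ± 0.03 from 10 to 20 kb. Of 24 ends with at least 3 such probes outside frames on either side of 10 kb, 20 were higher on the inner side.

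The channels behind this ratio did not move alike. Outside frames, the Myc signal averaged -0.11 ± 0.02 in the first kb, -0.23 ± 0.01 from 2 to 5 kb, -0.73 ± 0.05 from 5 to 10 kb and -0.97 ± 0.11 from 15 to 20 kb, as log2 intensity relative to the channel's median. It was -1.45 ± 0.17 beyond 50 kb. The Flag signal outside frames was -0.10 ± 0.06, -0.22 ± 0.05, -0.17 ± 0.04 and 0.17 ± 0.08 in the same 4 bins, and -0.28 ± 0.14 beyond 50 kb. From 1 to 2 kb the Myc signal was -0.75 ± 0.08 and the Flag signal -0.31 ± 0.09. Over these 6 stretches the Myc signal spanned a wider range than the Flag signal. Dim probes were less frequent near the ends: between 3.70% and 17.6% of the probes outside frames were not well above background in the 6 bins out to 20 kb, against 27.3% beyond 50 kb. With dim probes kept, the difference of the outer 10 kb from the rest was -0.75.

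**Figure D2:**
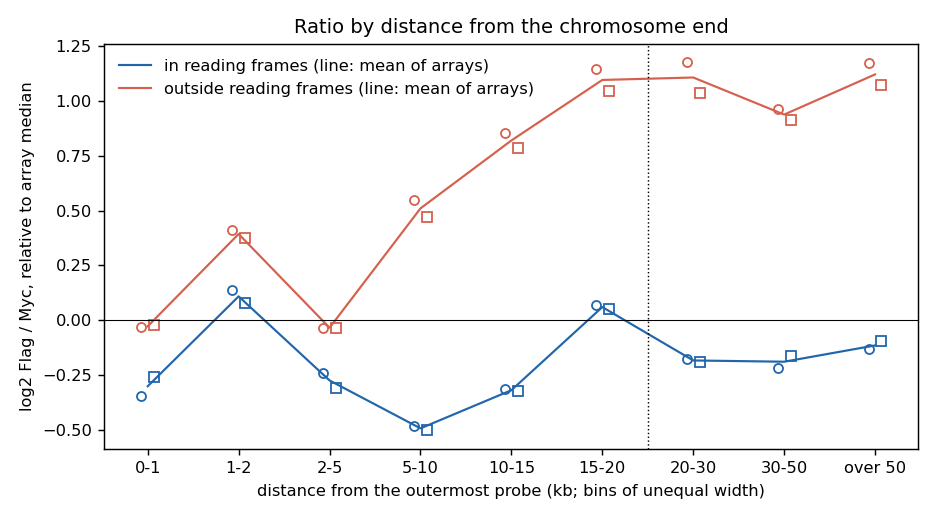
Mean log2 Flag over Myc, with the array median at 0 (vertical axis), by distance from the outermost probe in kb (horizontal axis, bins of unequal width), for probes in reading frames (blue) and outside them (red). Circles are replicate 1, squares replicate 2, lines join the means, and the dotted line marks 20 kb. DNA outside frames stands at -0.03 from 2 to 5 kb, and at 1.14 and 1.05 on the 2 arrays from 15 to 20 kb.

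Promoters repeated the order by gene. Within 5 kb of an end, 18 of 36 measured promoters were above the array median and 13 below it. From 5 to 10 kb the counts were 22 and 5 of 34, from 10 to 15 kb 24 and 4 of 36, and from 15 to 20 kb 43 and 3 of 51. The median promoter was 0.32, 0.74, 1.003 and 1.26 in these 4 steps. Beside these counts, 75.9% of all promoters were above the array median and 6.98% below it. Genes that share promoter probes are each counted, here and over all promoters. Such pairs within 5 kb include ARR2 and ARR3, PAU8 and YAL067W-A, and YEL076C and YEL076C-A, all below the median. YKL222C and MCH2 are another pair, above it. The counts are thus of genes and not of separate stretches of DNA. Reading frames were lowest from 5 to 10 kb, where 10 of 43 were above and 26 below the array median, with a median of -0.62. From 15 to 20 kb, 25 of 54 frames were above and 21 below. Of all frames, 39.1% were above and 42.9% below. Over all subtelomeric probes, the first 5 kb stood below the stretch from 5 to 20 kb by -0.41 and -0.38 on replicates 1 and 2. Without probes that list multi-copy families, X or Y′ elements that difference was -0.23. Just inside the limit, from 19 to 20 kb, the mean was 0.90 (86 probes), and just outside it, from 20 to 21 kb, 0.73 (89 probes).

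The 30 ends differed from each other about as much as interior stretches of the same length. The SD over ends was 0.46, against 0.45 over 552 interior windows of 20 kb. By limma, 21 end windows were above the array median and 6 below it, where 58.2% of all windows were above and 28.9% below. Relative to frame probes outside the ends, 26 ends were above and 3 below, or 89.7% of the called ends higher, against 77.8% relative to the array median. Interior windows rise with that centring as well, and their shares under it are not given here. The median SD between arrays of an end was 0.03, and 28 ends had the same sign on both arrays. Only end 5L lay below the 5th percentile of interior windows (-0.51), and 9L and 10R lay above their 95th percentile (0.96). Ends where the files list a Y′ element averaged 0.37 ± 0.04 (12 ends), and the 18 others 0.21 ± 0.03. Single ends ran from -0.68 to 1.09 with a listed Y′ element and from -0.48 to 1.17 without, and the difference of the means was not tested.

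**Figure D3:**
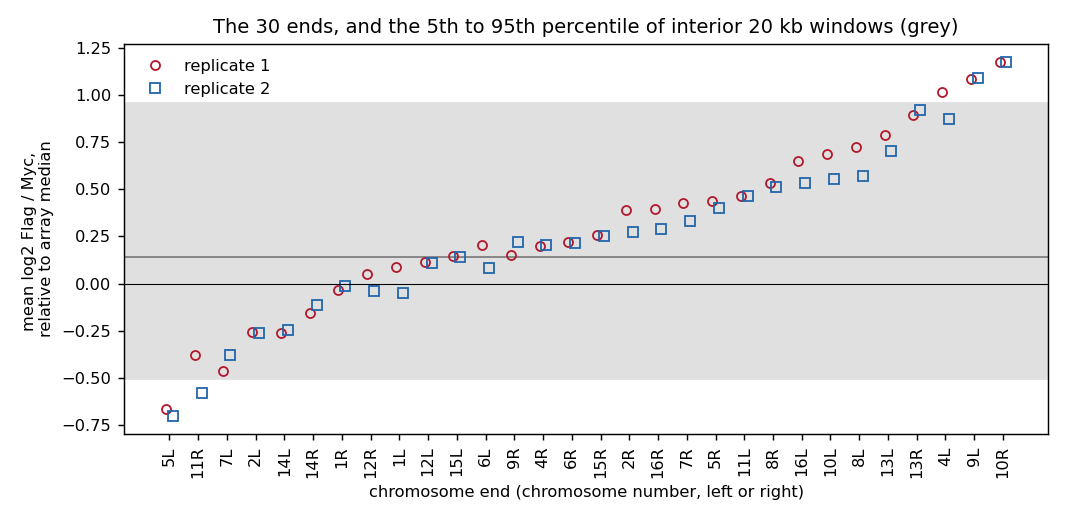
Mean log2 Flag over Myc, with the array median at 0 (vertical axis), of the used probes within 20 kb of each of 30 chromosome ends (horizontal axis, in order of the mean). Circles are replicate 1 and squares replicate 2. The grey band spans the 5th to 95th percentile of interior 20 kb windows, from -0.51 to 0.96, and the grey line is their median, 0.14. End 5L is the one below the band.

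The lowest ends were 5L, 11R and 7L. End 5L had -0.66 and -0.70 on the 2 arrays over 50 used probes. Of these, 35 (70%) were called below the array median, beside 40.1% of all nuclear probes. End 11R had -0.38 and -0.58 over 42 probes, the largest disagreement between arrays of any end. End 7L had -0.46 and -0.38 over 48 probes. The highest were 10R (1.18 and 1.17 over 44 probes), 9L (1.08 and 1.09 over 21) and 4L (1.02 and 0.87 over 21). Ends 9L and 4L carry few probes, so these means rest on a smaller part of their 20 kb than those of the other named ends. At the outermost used probe, 13 of the 30 ends were below the array median, 12 above it and 5 neither, with a median of -0.22. These counts are near the shares over all nuclear probes, 40.1% below and 40.5% above.

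Within an end, neighbouring probes often shared a call over several kb. The stretches named here are runs of neighbouring used probes with the same call, chosen after their values were seen. Run lengths in the rest of the genome are not given here. Of all nuclear probes 40.5% were called above and 40.1% below, so such runs are not shown to be particular to the ends. End 5L opened with 16 probes below the array median, from the outermost probe inward (chromosome 5, 5096 to 11530). They averaged -1.47 and -1.56 and covered the telomeric X core element, YEL073C and part of the DNA between YEL073C and RMD6. That run held the lowest used subtelomeric probe, between YEL073C and RMD6 (chromosome 5, 10574 to 10633), at -2.42 and -2.46. The opposite end of the same chromosome, 5R, opened with 16 probes above the array median (565342 to 570347), at 1.70 and 1.77 over KHS1, YER187W and YER188W. The 2 ends of chromosome 5 thus differed in sign on both arrays.

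End 7L held 14 neighbouring probes below the median (chromosome 7, 3410 to 10012), at -1.56 and -1.36. They lay across COS12, YGL262W, YPS5 and YGL258W-A. End 10R held the run with the most probes, 18 above the median (chromosome 10, 721583 to 726121), at 2.59 and 2.52 across PGU1 and YJR154W. Some runs with fewer probes spanned more DNA. End 6R combined both. Its 17 probes from 252909 to 257505 on chromosome 6, across HXK1 and the origin ARS609, averaged 2.47 and 2.36. Nearer the end lay YFR054C, at -2.18 ± 0.41, and YFR057W, at -1.77 ± 0.07. The highest used subtelomeric probe was at 8L (chromosome 8, 16844 to 16903), outside measured frames beside YHL041W, with 4.50 and 4.56.

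**Figure D4:**
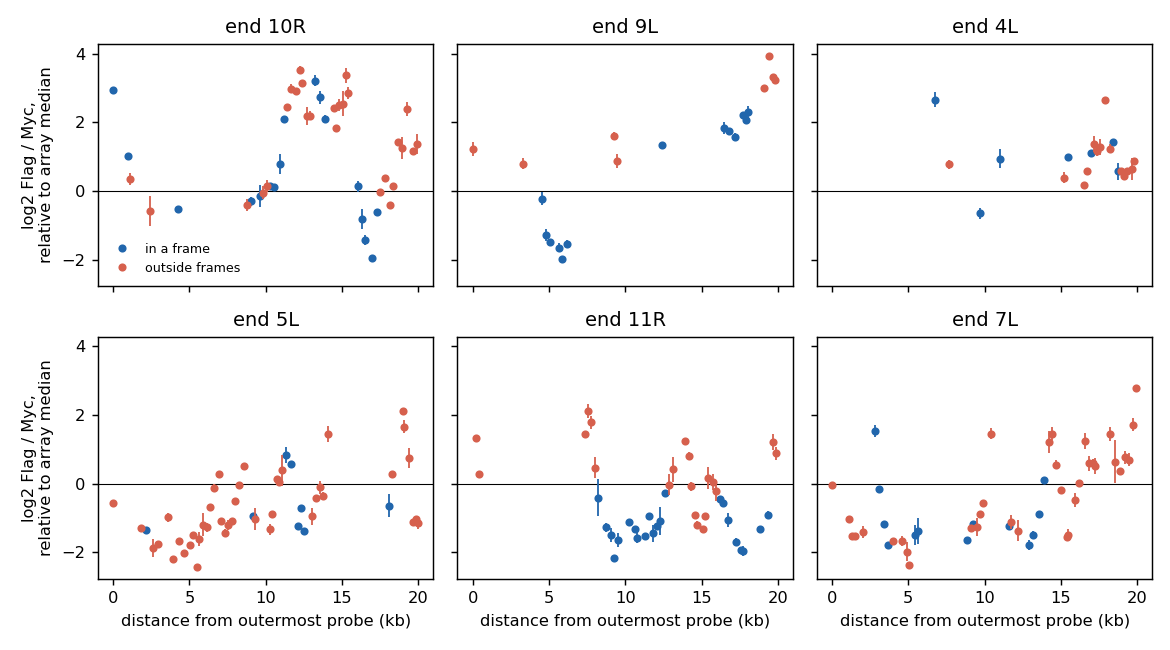
Log2 Flag over Myc, with the array median at 0 (vertical axis), of each used probe by its distance from the outermost probe in kb (horizontal axis), for the 3 highest ends (10R, 9L, 4L, upper row) and the 3 lowest (5L, 11R, 7L, lower row). Points are means of 2 arrays, bars span replicates 1 and 2, blue marks probes in a reading frame and red probes outside. End 10R rises above 2 between 11 and 15 kb, while most of the outer 10 kb of 5L lies below 0.

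Single reading frames covered a wide range. The 10 highest subtelomeric frames with at least 2 used probes lay between 1.94 and 2.92, and the 10 lowest between -2.18 and -1.27. All 20 were called by limma. Their positions join the start listed in the files to a frame length from assembly R64. The highest was YER187W, a small uncharacterised frame 3.85 kb from end 5R (chromosome 5, 566225 to 566650, forward strand). It had 2.80 and 3.04 on the 2 arrays, 7.57-fold above the median ratio (adjusted p = 2.59e-07). PGU1, which codes for a secreted pectin-degrading enzyme, followed at end 10R (chromosome 10, 722730 to 723815, forward strand), with 2.84 and 2.53 (limma adjusted p = 4.82e-07).

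HXK1, hexokinase isoenzyme 1, had 2.53 and 2.34 at 6R (chromosome 6, 253579 to 255036, reverse strand). PHO84, the high-affinity phosphate transporter, had 2.31 and 1.83 at 13L. SOR1, sorbitol dehydrogenase, had 1.98 and 1.99 at 0.47 kb from the outermost probe of 10R, with probes that may also read its near-identical copy SOR2. This frame in the first kb was thus high, while YFR057W, also in the first kb, was low. DIA1 at 13R stood at 2.02 ± 0.10, CSS1 at 9L at 1.96 ± 0.02 (0.80 under loess) and CSS3 at 15L at 1.94 ± 0.02.

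The arsenic resistance genes at end 16R lay side by side with opposite values. ARR1, which codes for the transcription factor of the cluster, had 2.29 and 2.06 at 3.59 kb (chromosome 16, 938144 to 939028, reverse strand). ARR2, the arsenate reductase, had 2.19 and 1.82 at 2.71 kb (939275 to 939667, reverse strand). ARR3, the arsenite exporter, was the outermost of the 3, at 1.66 kb (939918 to 941132, forward strand), and had -1.32 and -1.30 (limma adjusted p = 7.38e-06). The gap between ARR2 and ARR3 was far wider than the spread between arrays for either frame.

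The lowest frame was YFR054C at 6R (chromosome 6, 258842 to 259420, reverse strand), with -2.46 and -1.89 (limma adjusted p = 5.47e-06). VTH2 at 10L had -1.99 and -1.86, and VTH1 at 9L had -1.39 and -1.34. Both code for homologues of the vacuolar sorting receptor Vps10, and being near-identical copies they may share hybridisation. YFR057W, the outermost frame of 6R, had -1.82 and -1.71. YGL262W at 7L had -1.78 and -1.12, and BSC5 at 14R -1.58 and -1.24. The others were MMP1, the S-methylmethionine permease, at -1.31 ± 0.16, and HSU1 at -1.27 ± 0.02, both at 12L, and NFT1, an ABC transporter at 11R, at -1.31 ± 0.14 over 11 probes. ARR3 completes the 10.

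Among promoters the highest were those of ECM21, an arrestin-related adaptor for protein ubiquitination, at 4.20 and 3.56, RIF2, at 3.36 and 3.46, and CSS1, at 3.09 and 2.92. Those of RIF2 and CSS1 rest on 1 probe each. All of these genes lie 17.5 to 19.7 kb from an end. The lowest were those of YGL262W, at -2.35 and -2.03, and of the divergent pair PAU8 and YAL067W-A, which share 1 probe at -2.17 and -2.05. Their genes lie 1.93 to 5.53 kb from an end. YGL262W was thus low in both its promoter and its frame.

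Of the gene families with at least 3 measured frames, the maltose, hexose transporter, AAD and COS families had frames called on both sides of the array median, and the iron uptake family did not. The shares to set beside each count below are those over all frames, 39.1% above and 42.9% below. Many family members are near-identical copies whose probes may read more than 1 of them. Without the probes that list multi-copy families, 53 subtelomeric frames were above the median and 66 below. Maltose-use genes, which take up and split maltose and isomaltose, had 12 frames in the ends, of which 7 were measured: 6 were below the array median and 1 above, with a median of -0.84. MAL33, the activator gene at 2R, had 1.29 and 0.999, and at the same end MAL32, the maltase gene, had -1.06 and -1.26 from a single probe. Between them lies MAL31, at -0.84 ± 0.16. The promoters of that family were above the median in 5 of 6 cases, where 75.9% of all promoters were. Hexose transporter frames had 3 below, 1 above and 2 neither of 6 measured, and the 8 frames farther from an end had 4 below and 3 above. HXT9 at 10L had 1.18 and 1.19 (mean 0.61 under loess) and HXT17 at 14R -1.13 and -0.65, each from 1 probe.

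Of the 4 measured aryl-alcohol dehydrogenase homologues, 1 was above, 2 were below and 1 was neither, between AAD14 at -1.15 and -0.44 and AAD4 at 1.06 and 0.90. The 4 iron and siderophore uptake frames had 3 below and 1 neither. FRE2, a ferric reductase, had -0.93 and -1.06, and ARN1, a siderophore transporter, had 0.14 and -0.33 and was not called. COS genes, a family of membrane proteins near telomeres, had 2 above and 3 below of 5 measured, from COS10 at -0.73 and -0.78 to COS6 at 0.94 and 0.60. COS6 rests on 1 probe and was not called under loess. The flocculin gene FLO10 at 11R stood at -1.24 ± 0.02, and the single probe of the acid phosphatase gene PHO12 at -2.29 and -1.46 (mean -3.20 under loess).

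The seripauperins (PAU), cell-wall proteins of oxygen-poor growth, had 17 frames in the ends and no measured frame, but their 4 measured promoters were all below the array median (median -1.50), where 6.98% of all promoters were. Those of PAU8, PAU10 and PAU19 lie within 5 kb of an end, where 36.1% of measured promoters were below. In that share, genes with a common promoter probe are each counted. PAU8, PAU19 and PAU20 rest on 1 promoter probe each, and that of PAU8 is shared with YAL067W-A. The 78 used probes that list a PAU gene averaged -0.48 ± 0.04, against 0.50 for the 61 such probes farther from an end. A probe lists the genes near it, some of them kb away. Values by listing, here and below, therefore describe DNA around the listed genes and not the genes alone. No frame of the Y′ helicase genes YRF1 or of the thiamine genes THI5, THI11, THI12 and THI13 had a used probe. Probes that list a telomere averaged -0.18 ± 0.00 (65 probes), those that list an X element -0.18 ± 0.00 (62) and those that list a Y′ element -0.16 ± 0.01 (27). These 3 sets overlap. The 396 used probes that list any of the families averaged 0.20 ± 0.03, and the 1034 that list none 0.26 ± 0.03.

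**Figure D5:**
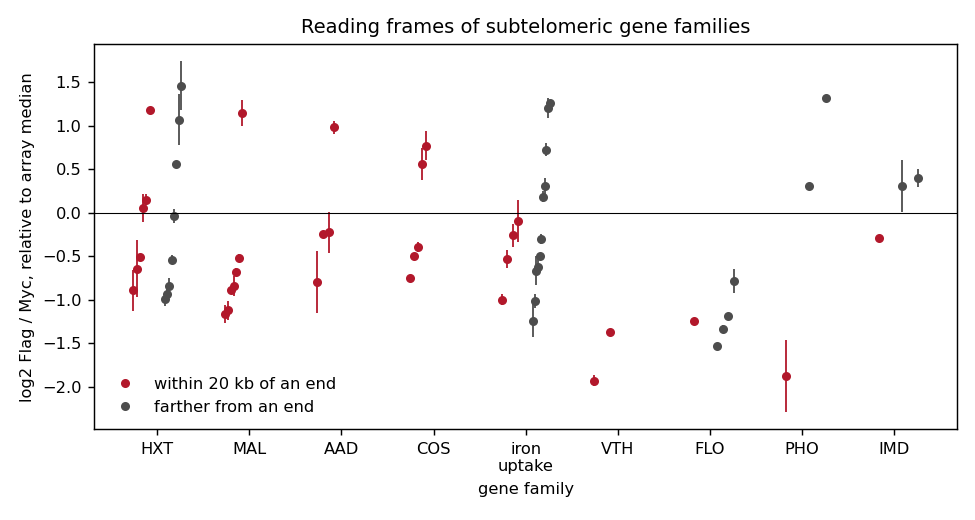
Log2 Flag over Myc, with the array median at 0 (vertical axis), of measured reading frames by gene family (horizontal axis), within 20 kb of an end (red, left) and farther from an end (grey, right). Each point is a frame's mean of 2 arrays and its bar spans replicates 1 and 2. Of the maltose-use frames (MAL) 6 lie below 0 and MAL33 above it, and both VTH frames lie below -1.

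The genes that code for silencing and telomere factors were read as a list of 20, most of them far from any end. Their frames were below the array median in 12 cases, above it in 5 and neither in 3 (60% below and 25% above, beside 42.9% and 39.1% of all frames), with a median of -0.55, against -0.05 over all frames. These 20 frames were longer, with a median of 1927.5 bp against 1227 bp over all frames, and length was not allowed for. Of the Sir proteins, which form silent chromatin, SIR1 stood at -1.07 ± 0.08, SIR3 at -0.83 ± 0.11 and SIR4 at -0.64 ± 0.13. SIR2, the histone deacetylase among them, stood at 0.91 ± 0.05. RIF2, a telomere-length regulator, and RPD3, a histone deacetylase, are themselves subtelomeric, at 12R and 14L, and were above the median with 1.75 ± 0.08 and 0.50 ± 0.04. RPD3 was 0.31 with normexp background correction. Whether RNA or protein of any of these genes differed was not measured here.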

How the data were processed

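The deposited scanner files hold a spot intensity per channel. Per the file headers, the authors' scans were read with Feature Extraction 8.5.1.1, with local background subtraction, spatial detrending and a linear dye factor per channel. A value table was also deposited: it equals log2 Myc over Flag of those processed signals, uncentred, within 4.9e-08. Its sign was turned for use as an alternative. No probe was saturated.

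From these, log2 Flag over Myc was taken and centred on each array's median over used nuclear probes (-0.46 before centring on both arrays). For the probe coordinates, a build is not given in sources used here, and they are printed as in the files. Frame starts came from the distances listed per probe. Frame lengths came from a gene table of assembly R64, which matched 5943 of 6593 frames. Of these, 9 were left out because the listing contradicted them. Probes in frames of unknown length count as outside frames. Probe sequences were not used here.

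Probes, frames, promoters and 20 kb windows with at least 10 used probes were fitted with limma 3.58.1 in R 4.3.3 (intercept, eBayes, Benjamini-Hochberg at 0.05). For promoters limma fitted 1 common spread. The fit was tested on simulated data. Differences of means were tested by exact sign flips over arrays. Named were the 10 highest and 10 lowest frames with at least 2 probes, 3 promoters and 3 ends each way, each family's highest and lowest frame, and the extreme probes. Further genes were chosen after their values were seen. The members, lists and families were chosen with earlier results of these data known. Alternatives were normexp (offset 50), no dim filter, loess, scaling, another centring, the value table, no multi-copy probes, limits of 10 kb and 30 kb, and each array left out.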

Additional observations from a re-analysis of the deposited data

How the results depend on the processing

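The 2 arrays, the missing dye swap and the lack of another strain limit all values. Signal over background limits DNA outside frames: 17.9% of promoter probes in the ends and 27.7% in the rest were not well above background. No paired analysis was possible because the samples form 1 group. The differences in means kept their direction under every background, normalisation, filter and multi-copy alternative run. Another centring cannot change them. With 1 array left out they ran from 0.04 to 0.08 for all probes, -0.13 to -0.07 for frame probes, -0.30 to -0.26 for promoter probes, -0.41 to -0.38 for the first 5 kb and -0.85 to -0.79 for DNA outside frames in the outer 10 kb. The difference over all probes reversed with ends of 10 kb (-0.18) and, added after the data were seen, with the rest weighted to the same make-up (-0.32). It was 0.09 with ends weighted equally, also added. Leaving out single ends and probes that list frames of unknown length was added as well.

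With ends of 10 kb, 239 probes were above and 273 below the array median, 25 frames above and 45 below, 40 promoters above, and 9 end windows above and 10 below. At that limit the difference was -0.25 for frame probes and -0.60 for promoter probes. With ends of 30 kb, 1009 probes were above and 891 below, 112 frames above and 155 below, and 185 promoters above. Promoters below the median numbered 14 with centring on frame probes and 14 without multi-copy probes, and end windows below it 3 with that centring. ARN1 turned to 0.24 with that centring and ran from -0.33 to 0.14 with 1 array left out. COS6 was 0.67 under loess (limma adjusted p = 0.057). Loess took CSS1 to 0.80 (limma adjusted p = 0.043), HXT9 to 0.61 and PHO12 to -3.20, and normexp took RPD3 to 0.31, with their calls kept. Centring on frame probes moved called low frames toward 0: COS10 was then -0.42, HXT17 -0.55, AAD14 -0.46, FRE2 -0.66, SIR3 -0.49 and SIR4 -0.30. It took RPD3 to 0.84. All 44 frames and promoters checked, other than ARN1 and COS6, kept direction and call under the alternatives run for them. The cause of these changes was not tested.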
